A study of Mus musculus with 3 samples.

Results

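The genes described here code for the machinery that brings secreted and membrane proteins into the endoplasmic reticulum (ER), cuts and glycosylates them there, and moves them between the ER and the Golgi apparatus. The 44 genes were chosen by symbol from known complexes, with earlier results of these data known. The read-count table of 20162 genes held 45 rows for them, because Sec61g stood at 2 Ensembl identifiers. All 45 rows passed the filter on low counts and were among the 14478 genes tested. They fall into 6 groups: the translocon (10 rows), the signal recognition particle (SRP) with its receptor (7), signal peptidase (5), oligosaccharyltransferase (8), the COPII coat (8) and the COPI coat (7).

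Most secreted proteins are recognised by SRP while they are still being made and are handed to the SRP receptor on the ER membrane, from which they enter the Sec61 channel. Signal peptidase then removes the signal peptide, and oligosaccharyltransferase attaches N-linked sugar chains. COPII coats bud vesicles that leave the ER, and COPI coats return proteins from the Golgi to the ER. Cells are known to raise many of these genes through the unfolded protein response, in which the factors XBP1, ATF6 and ATF4 act.

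The RNA came from 3 populations of C2C12, mouse myoblasts that fuse into myotubes in low serum, and its polyadenylated part was sequenced. Each population carried a puromycin-selected lentivirus that expressed a short hairpin RNA (shRNA) and was differentiated for 7 days in 2% horse serum. The control population (ShSC) expressed a control shRNA, and the others expressed different shRNAs against TEAD4, a DNA-binding transcription factor (ShA and ShB, called shRNA A and shRNA B below). There was 1 library for each shRNA, so the shRNAs are the only replicates of TEAD4 silencing, and nothing in the labels describes repeat cultures.

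Depth was 16412139 counted reads in the control, 19918954 with the first hairpin (shRNA A) and 15594305 with the other. The target, Tead4, had 1256, 397 and 170 reads, a log2 ratio to the control of -1.99 with shRNA A and -2.86 with shRNA B. All 8 myotube markers examined were present, at a summed 19389 CPM (reads scaled to library size with edgeR's TMM factors) in the control and 11761 and 13735 CPM with shRNAs A and B, and 4 of the 8 fell. All 8 markers of dividing cells rose, from a summed 41.9 CPM to 181 and 178 CPM. Of 6 markers of undifferentiated myoblasts, 2 rose and 1 fell, with sums of 350, 405 and 415 CPM. The 3 fibroblast markers in the table had sums of 140, 134 and 75.6 CPM. The 4 endothelial markers summed to at most 1.40 CPM and the 2 adipocyte markers to at most 7.85 CPM, with Fabp4 at 0 reads with shRNA B, Pecam1 at 0 in the other two libraries and Cdh5 at 0 in the control. These cells were measured in bulk, so fewer cells of a kind and less RNA per cell cannot be told apart, and the part of the shift in myotube and dividing-cell markers in the results below was not tested.

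With TEAD4 silenced, 8 of the 45 rows fell and 0 rose. Those that fell were Rpn1, Ostc and Krtcap2 of oligosaccharyltransferase, Spcs2, Spcs3 and Sec11c of signal peptidase, Ssr2 of the translocon and Srp19 of SRP. All 8 were at least 1.5-fold lower in each shRNA library, with counting intervals that exclude no change. These ratios come from the same counts as the test and are not separate evidence. At least 2-fold lower in both were 0 members. Over all genes tested, 4.48% fell and 5.34% rose (9.82% in either direction), and 7.03% were at least 1.5-fold lower in both libraries (3.1% at least 2-fold). As many as 8.99% were at least 1.5-fold higher in both and 4.63% at least 2-fold, against 0 members. The test was edgeR's quasi-likelihood test of both shRNA libraries against the control, with Benjamini-Hochberg adjustment over all 14478 genes and a threshold of 0.05. At an unadjusted p under 0.05, 15 members were lower and 0 higher (9.78% of all genes tested were lower at that level), and neither DESeq2 nor limma-voom called any member higher. The test leaves 1 residual degree of freedom, so the only replicate spread it holds is that between libraries with different shRNAs. The variance used for each gene was mostly borrowed from all genes tested (prior df 20.9), not set by its own libraries. With the dispersion taken over all 3 libraries as 1 group, a likelihood-ratio test called 0 of the 45 members (0 at an unadjusted p under 0.05) and 0 of all genes tested (540 at that level).

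The groups differed in where their members lay. The median log2 fold change was -0.76 for signal peptidase, -0.58 for oligosaccharyltransferase, -0.46 for SRP and its receptor, -0.30 for the translocon, 0.13 for COPII and -0.01 for COPI, against 0.02 for all genes tested. The COPI median was above 0 with upper-quartile (0.03) and total-count scaling (0.04). All 8 rows that fell belonged to the 30 rows of the first 4 groups, where 4.48% of all genes tested fell. Of the 15 coat rows 0 passed, also at an unadjusted p under 0.05 and with DESeq2 or limma-voom. Over all genes tested, 9.82% passed in either direction and 21.7% had an unadjusted p under 0.05. At the adjusted level, 0 among 15 rows is near the share over all genes. Both shRNA libraries lay below the control for 24 of the 30 rows of those 4 groups and for 3 of the 15 coat rows, where 37.8% of all genes tested did so. Both lay above it for 3 of the 30 and 7 of the 15, where 39.7% of all genes did. The difference between the groups was not tested.

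**Figure D1:**
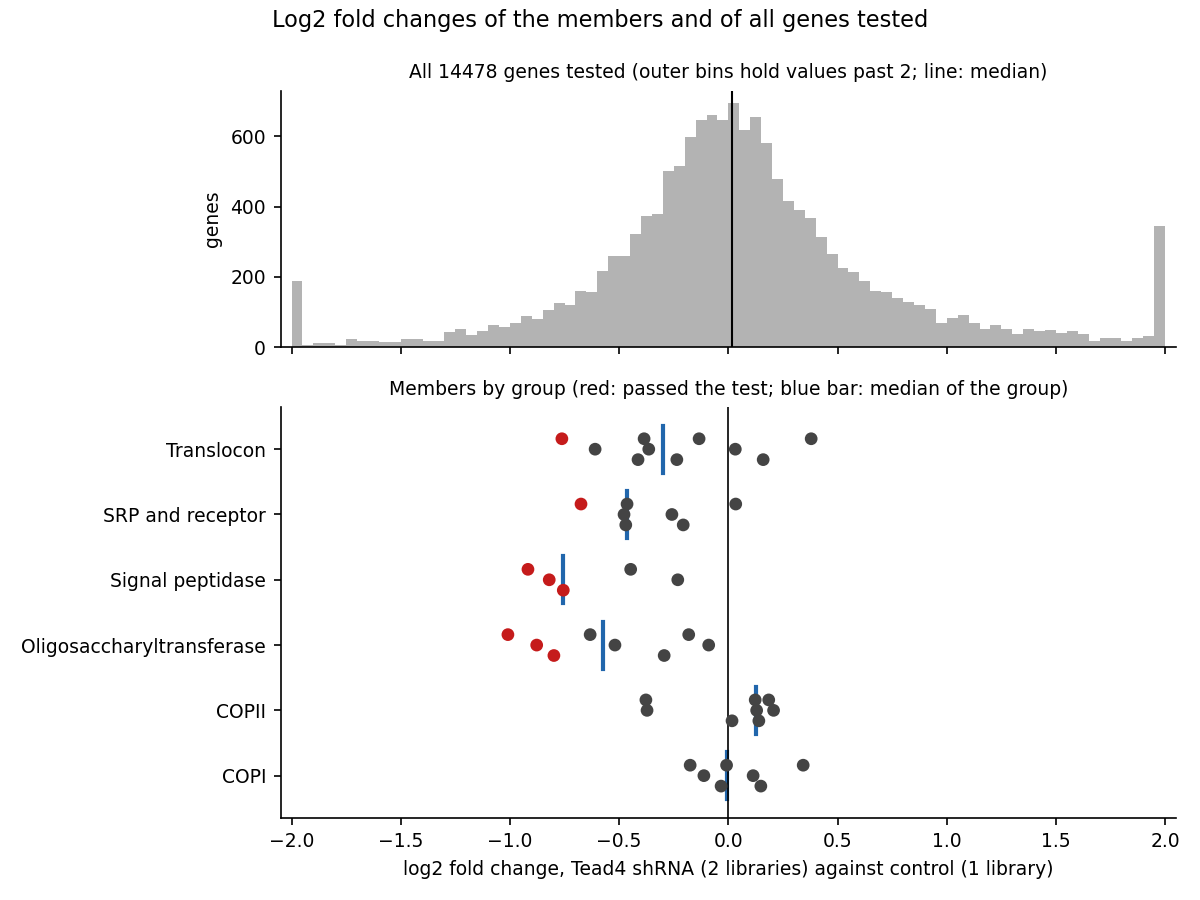
Log2 fold change of Tead4 shRNA against control for all 14478 genes tested (upper panel, number of genes per bin) and for the 45 member rows by group (lower panel, 1 point per row, blue bar for the group median). The 8 rows that passed the test are red and lie between -1.01 and -0.67, and the coat rows lie on both sides of 0, from -0.38 to 0.34.

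In reads, the members together took 0.832% of the control library (95% exact interval 0.828 to 0.837), 0.724% (0.720 to 0.728) for shRNA A and 0.721% (0.717 to 0.726) for shRNA B. The 30 rows of the first 4 groups took 0.545%, 0.405% and 0.430%. The 15 coat genes took 0.287%, 0.319% and 0.291%. These shares use no TMM factor, but they depend on the total reads of each library, as total-count scaling does. Such intervals, here and below, cover counting error only and leave out variation between cultures and libraries. Reads amplified by PCR are not independent molecules, so the intervals could be too narrow even for counting error.

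**Figure D2:**
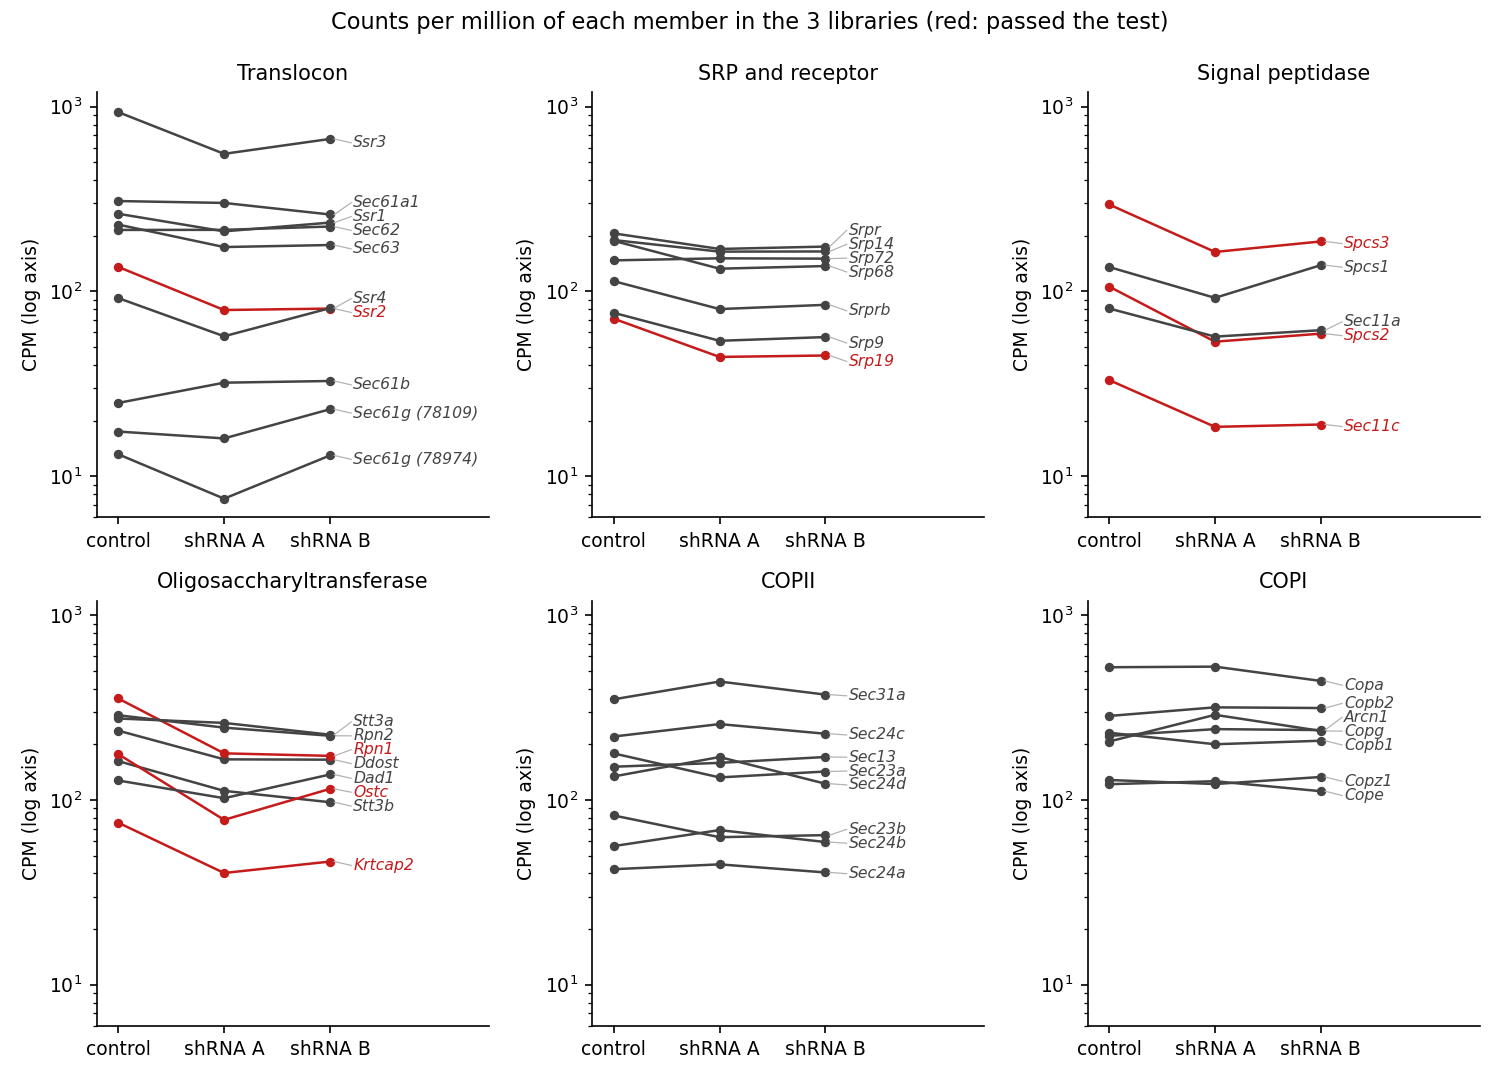
CPM of each member (log axis) in the 3 libraries, 1 panel per group, with members that passed the test in red. The red lines drop from the control to both shRNA libraries, while most lines in the COPII and COPI panels stay close to level; the 2 Sec61g rows carry the last 5 digits of their identifiers.

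SRP and its receptor act before the protein reaches the membrane. In this group Srp19, which helps to assemble the particle on its RNA, fell: it had 1143 reads in the control and 889 and 709 in the libraries of shRNAs A and B, which is 71.2, 44.2 and 45.0 CPM. Its log2 ratio to the control was -0.69 (-0.82 to -0.56) for shRNA A and -0.66 (-0.80 to -0.53) for shRNA B, and the fitted log2 fold change was -0.67 (SE 0.22, edgeR adjusted p = 0.0491). Both shRNA libraries lay well below the control and close to each other. This call is the weakest of the 8: it ended with each of 3 other scalings, with DESeq2 (adjusted p = 0.159) and with limma-voom, over a range from 0.0404 to 0.885. Srp68, of the S domain that binds signal sequences, had 188 CPM in the control and 133 and 137 CPM with the shRNAs, a fitted log2 change of -0.48 (SE 0.22, adjusted p = 0.208). Srp9, of the Alu domain that slows elongation, had 76.6, 54.0 and 56.6 CPM and a fitted log2 change of -0.47 (SE 0.21, adjusted p = 0.199). In raw reads, Srp68 had 3017, 2670 and 2161, and Srp9 had 1230, 1087 and 892. Neither passed the test, although both intervals of each gene excluded no change (Srp68, -0.58 to -0.43 and -0.53 to -0.37; Srp9, -0.62 to -0.38 and -0.56 to -0.31).

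The receptor subunits and remaining SRP proteins did not pass. Srprb, the membrane-anchored subunit, had a fitted log2 change of -0.46 (SE 0.22, adjusted p = 0.209), and Srpr, the subunit that docks SRP, -0.26 (SE 0.23). Srp14, the partner of Srp9, had -0.21 (SE 0.23). Srp72, the partner of Srp68, had 0.03 (SE 0.23), with 147, 151 and 150 CPM. The shRNA libraries lay close to each other in this group: for 0 of its 7 genes did the interval of the ratio of B to A exclude no difference. Among all genes tested that interval lay above 0 for 25.3% and below it for 25.4%.

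The Sec61 channel itself showed no call. Sec61a1, the pore subunit, had 4951, 6058 and 4109 reads (308, 301 and 261 CPM) and a fitted log2 change of -0.13 (SE 0.24, adjusted p = 0.820). Sec61b, a small subunit, had 24.9 CPM in the control and 32.1 and 32.7 CPM with the shRNAs, the highest log2 fold change of all members at 0.38 (SE 0.24, adjusted p = 0.392). Sec61g, the other small subunit, had 280, 322 and 363 reads at the identifier ENSMUSG00000078109 and 211, 152 and 204 reads at ENSMUSG00000078974. Reads of near-identical copies could be split between these rows, so the log2 fold changes of 0.16 (SE 0.27) and -0.36 (SE 0.32) are uncertain. Sec62, a receptor for proteins that enter after translation, had 215, 215 and 224 CPM and a fitted log2 change of 0.03 (SE 0.23). Sec63, which recruits the chaperone BiP to the channel, had 230, 174 and 178 CPM and a fitted log2 change of -0.39 (SE 0.23, adjusted p = 0.345).

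The 4 subunits of TRAP, the translocon-associated protein complex that helps some signal sequences open the channel, were all lower in both shRNA libraries. Ssr2 (TRAP beta) fell: it had 2179 reads in the control and 1595 and 1272 in the libraries of shRNAs A and B, which is 136, 79.3 and 80.7 CPM. Its log2 ratios were -0.78 (-0.87 to -0.68) and -0.75 (-0.85 to -0.65), and the log2 fold change was -0.76 (SE 0.21, edgeR adjusted p = 0.0246). The library kit does not mark strand, and 12.8% of the Ssr2 exon bases are shared with Gm10704 on the opposite strand (1935, 2047 and 1776 reads), so reads there could come from either gene.

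Ssr3 (TRAP gamma) had the most reads of any member, at 14998, 11170 and 10537. Its log2 ratios were -0.75 (-0.79 to -0.71) and -0.48 (-0.52 to -0.45), and with a fitted log2 change of -0.61 (SE 0.24, adjusted p = 0.125) it did not pass. Ssr4 (TRAP delta) had 1478, 1150 and 1279 reads. It was lower with shRNA A (-0.69, -0.80 to -0.58) than with shRNA B (-0.18, -0.29 to -0.07), and its log2 fold change was -0.41 (SE 0.23, adjusted p = 0.323). Ssr1 (TRAP alpha) had -0.24 (SE 0.23). The median of the 4 subunits was -0.51, and that of the 6 Sec61, Sec62 and Sec63 rows was -0.05.

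**Figure D3:**
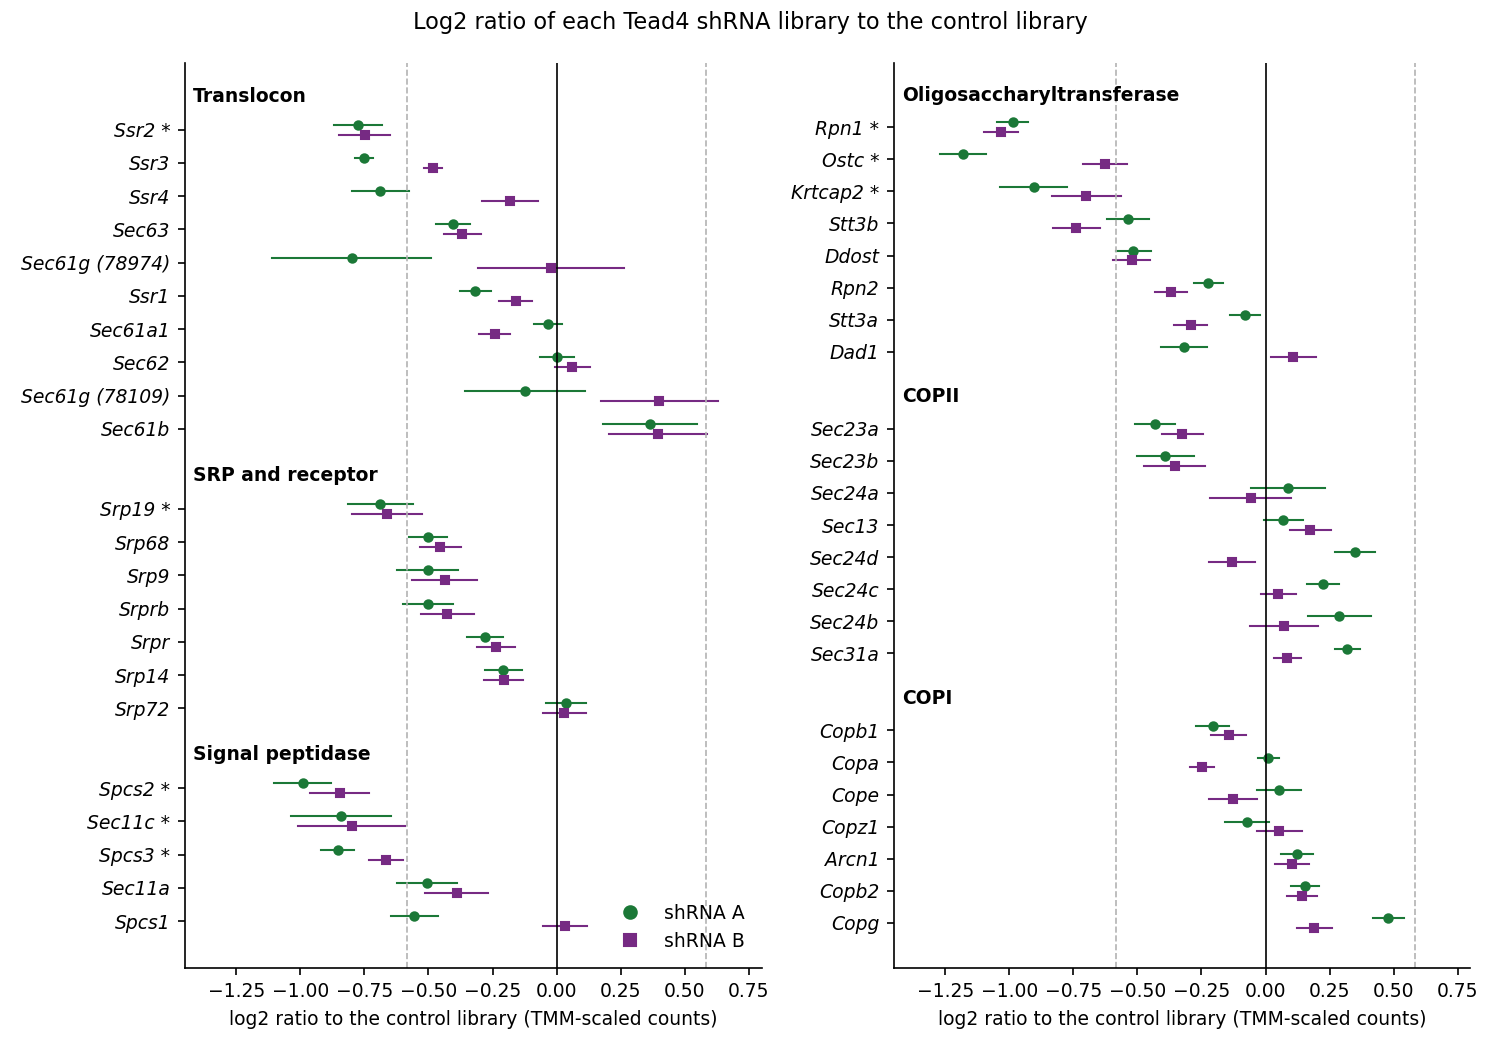
Log2 ratio of the shRNA A library (circles) and the shRNA B library (squares) to the control library for every member row, with 95% exact counting intervals, dashed lines at 1.5-fold and an asterisk where the test was passed. Signal peptidase and oligosaccharyltransferase genes lie mostly left of 0 with both shRNAs, and circles and squares part most for Ostc, Spcs1, Ssr4, the Sec61g rows, Sec24d and Dad1.

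Signal peptidase had the lowest median, and 3 of its 5 genes fell, where 4.48% of all genes tested did so. Spcs2, an accessory subunit, had 1706 reads in the control and 1075 and 931 in the libraries of shRNAs A and B, which is 106, 53.4 and 59.1 CPM. Its log2 ratios were -0.99 (-1.10 to -0.88) and -0.85 (-0.96 to -0.73), with a fitted log2 change of -0.92 (SE 0.21, edgeR adjusted p = 0.00654). Both shRNA libraries were therefore close to 2-fold below the control. Spcs3, the accessory subunit needed for the enzyme's activity, had 4743, 3289 and 2937 reads (295, 163 and 186 CPM). Its log2 ratios were -0.85 (-0.92 to -0.79) and -0.66 (-0.73 to -0.60), with a fitted log2 change of -0.76 (SE 0.23, adjusted p = 0.0359), which upper-quartile scaling raised to an adjusted p of 0.0590 (0.0182 to 0.885 over the alternatives).

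The enzyme has a catalytic subunit in either of 2 forms. Sec11c fell, with 532, 372 and 300 reads (33.1, 18.5 and 19.0 CPM), log2 ratios of -0.84 (-1.04 to -0.65) and -0.80 (-1.01 to -0.59) and a fitted log2 change of -0.82 (SE 0.23, adjusted p = 0.0262). DESeq2 ended this call (adjusted p = 0.161; 0.0167 to 0.885 over the alternatives). Sec11a had 1298, 1145 and 972 reads, and its log2 fold change of -0.45 (SE 0.21, adjusted p = 0.227) did not pass. Spcs1, the remaining accessory subunit, had 136 CPM in the control, 92.3 CPM with shRNA A and 139 CPM with shRNA B. It was thus lower with shRNA A alone, at a log2 ratio of -0.55 (-0.64 to -0.46) against 0.03 (-0.05 to 0.12) with shRNA B. A share of 16.3% of its exon bases is common to Glt8d1 on the opposite strand (713, 958 and 781 reads).

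The promoter of Spcs2, the signal peptidase gene that fell most, is shown for the 150 bases before its start site (RefSeq, GRCm38.p6, chr7:99858884-99859033, minus strand). Capitals mark CCAAT, letters that form part of the ER stress response element. However, they were in 37.4% of all promoter windows and in 18 of the 40 member windows (45%), from 17 of the 36 member genes with a window:
Spcs2: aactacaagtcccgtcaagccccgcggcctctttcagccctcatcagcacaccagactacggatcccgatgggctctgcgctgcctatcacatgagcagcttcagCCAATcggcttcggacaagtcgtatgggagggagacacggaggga

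Oligosaccharyltransferase held the member with the lowest log2 fold change, Rpn1 (ribophorin I), a subunit shared by both forms of the enzyme. Rpn1 had 5685 reads in the control and 3593 and 2728 in the libraries of shRNAs A and B, which is 354, 179 and 173 CPM. The log2 ratios were -0.99 (-1.05 to -0.93) and -1.03 (-1.10 to -0.97), and the log2 fold change was -1.01 (SE 0.22, edgeR adjusted p = 0.00477). The libraries of both shRNAs were about 2-fold below the control and did not differ from each other beyond counting error (log2 ratio of B to A -0.05, -0.12 to 0.03). Of all genes tested, 4.73% had a lower fold change than Rpn1.

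The 150 bases before the Rpn1 start site (RefSeq, GRCm38.p6, chr6:88084323-88084472, plus strand) are shown for the same letters, and hold both CCACG and, next to the start site, CCAAT, in capitals. CCACG was in 32.8% of all windows and in 27 of the 40 member windows (67.5%). Those windows belong to 25 of the 36 member genes with a window, among them genes that did not pass:
Rpn1: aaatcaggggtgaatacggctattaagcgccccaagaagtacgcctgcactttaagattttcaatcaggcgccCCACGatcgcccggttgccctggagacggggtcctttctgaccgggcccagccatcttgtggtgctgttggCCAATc

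The other genes of the enzyme that fell, Ostc and Krtcap2, code for small subunits found only with the STT3A form of the enzyme, which works on proteins as they enter through Sec61. Ostc had 2841, 1569 and 1808 reads (177, 78.0 and 115 CPM). It was lower with shRNA A, at a log2 ratio of -1.18 (-1.27 to -1.09), than with shRNA B, at -0.62 (-0.71 to -0.54), and the log2 fold change was -0.88 (SE 0.24, adjusted p = 0.0197). Krtcap2 had 1209, 809 and 731 reads (75.3, 40.2 and 46.4 CPM). Its log2 ratios were -0.90 (-1.03 to -0.78) and -0.70 (-0.83 to -0.57), with a fitted log2 change of -0.80 (SE 0.22, adjusted p = 0.0202) that DESeq2 did not call (adjusted p = 0.0701; 0.00885 to 0.885 over the alternatives). A share of 15.7% of its exon bases is common to Trim46 on the opposite strand, which had 182, 140 and 63 reads.

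The catalytic subunits did not pass. Stt3b, of the form that glycosylates sites missed on entry, had 162, 112 and 97.2 CPM and log2 ratios of -0.53 (-0.62 to -0.45) and -0.74 (-0.83 to -0.65), with a fitted log2 change of -0.63 (SE 0.22, adjusted p = 0.0747). Stt3a, of the form that works on entry, had 276, 261 and 225 CPM, log2 ratios of -0.08 (-0.14 to -0.02) and -0.29 (-0.36 to -0.23), and a fitted log2 change of -0.18 (SE 0.23, adjusted p = 0.739). Both catalytic subunits thus lay below the control in both libraries, and the difference between them was not tested. Ddost, a subunit shared by both forms, had 237, 166 and 165 CPM and a fitted log2 change of -0.52 (SE 0.22, adjusted p = 0.169). Rpn2 (ribophorin II), also shared, had -0.29 (SE 0.23). Dad1, a small shared subunit, had 127, 102 and 137 CPM, below the control with shRNA A and slightly above it with shRNA B, and a fitted log2 change of -0.09 (SE 0.23).

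Paralogs are read here as a share of their family's reads, which needs no scaling between libraries but depends on exon length. Per kilobase of exon, counting every exon base annotated for a gene, Stt3b stood above Stt3a in the control (38.4 against 30.8 CPM per kilobase). It stood below Stt3a with shRNA A (26.5 against 29.2 CPM per kilobase) and shRNA B (23.0 against 25.2 CPM per kilobase). In CPM not divided by length, Stt3a stood above Stt3b in the control (276 against 162 CPM) and in both shRNA libraries. The order in the control thus depends on the lengths used. Stt3b took 37.0% of the reads of Stt3a and Stt3b in the control (95% exact interval 35.9 to 38.2), 30.0% (28.98 to 31.1) for shRNA A and 30.1% (28.9 to 31.4) for shRNA B. Sec11c took 29.1% of the Sec11 reads in the control (27.0 to 31.2), 24.5% (22.4 to 26.8) for shRNA A and 23.6% (21.3 to 26.02) for shRNA B. In both families the paralog with fewer reads had the smaller share in each shRNA library, and the intervals of the shRNA libraries did not overlap that of the control. These intervals cover counting error only, beyond which the shRNA libraries also differed from each other for 25.3% (B above A) and 25.4% (B below A) of all genes tested. Those percentages are for single genes between the shRNA libraries. How often the shares of paralog families part from the control in this way was not counted. Sec23b took 31.6%, 32.2% and 31.2% of the Sec23 reads, with overlapping intervals. These are shares of 1 library each and carry no replicate test.

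**Figure D4:**
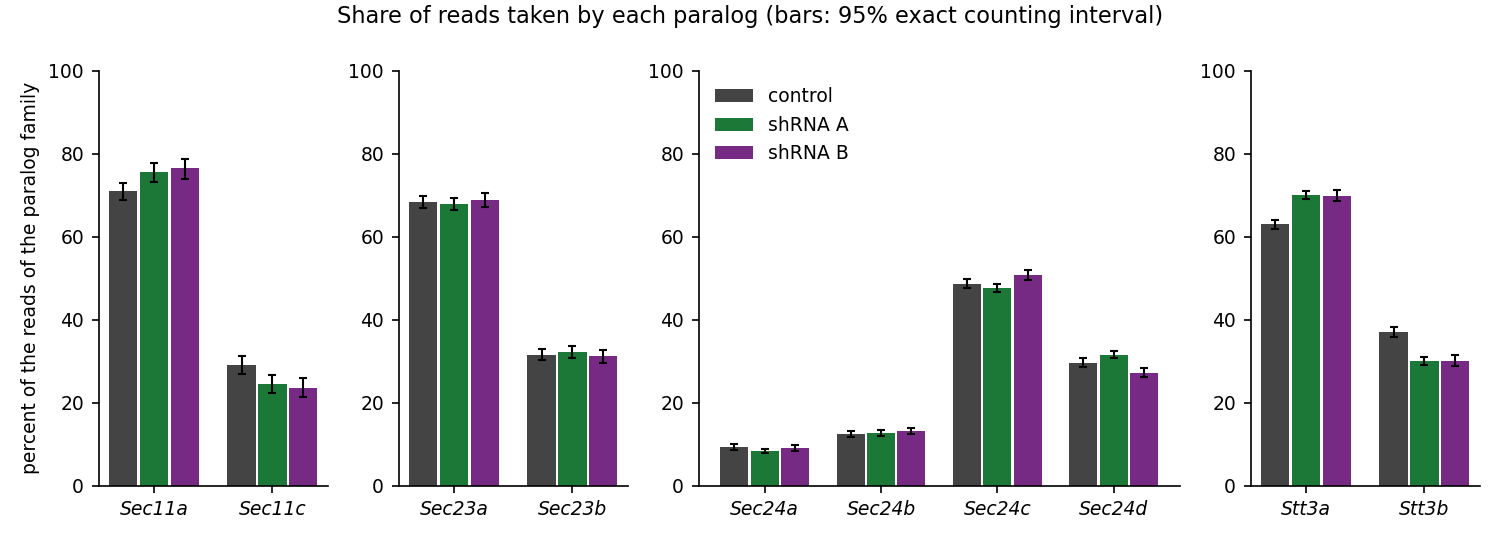
Percent of the reads of each paralog family taken by each member in the libraries of the control (grey), of shRNA A (green) and of shRNA B (purple), with 95% exact counting intervals. Stt3b stands at 37.0% in the control and at 30.0% and 30.1% with the shRNAs, and the Sec23 shares stay between 31.2% and 32.2% for Sec23b.

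Of the COPII coat, 0 of 8 genes passed, where 9.82% of all genes tested passed in either direction. Sec23a, the inner-coat protein that activates the GTPase SAR1, had 2866, 2662 and 2245 reads, log2 ratios of -0.43 (-0.51 to -0.36) and -0.33 (-0.41 to -0.24) and a fitted log2 change of -0.38 (SE 0.22, adjusted p = 0.351). Its paralog Sec23b had 1323, 1264 and 1016 reads, log2 ratios of -0.39 (-0.50 to -0.28) and -0.35 (-0.47 to -0.23), and a fitted log2 change of -0.37 (SE 0.21, adjusted p = 0.334). The Sec23 genes were the only COPII genes below the control in both libraries, and their values were nearly equal. Sec31a, of the outer coat, had 5624, 8794 and 5852 reads, log2 ratios of 0.32 (0.27 to 0.37) and 0.08 (0.03 to 0.14), and a fitted log2 change of 0.21 (SE 0.24, adjusted p = 0.709). Its outer-coat partner Sec13 had 0.12 (SE 0.23).

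The SEC24 proteins pick the cargo of COPII vesicles. Sec24a, Sec24b, Sec24c and Sec24d had log2 fold changes of 0.02, 0.18, 0.14 and 0.13. Sec24d had 134 CPM in the control, 171 CPM with shRNA A and 122 CPM with shRNA B. Its share of the Sec24 reads was 29.6% in the control (28.5 to 30.7), 31.5% (30.7 to 32.4) for shRNA A and 27.2% (26.2 to 28.2) for shRNA B. The 2 shRNA libraries thus lay on opposite sides of the control for Sec24d. Sec24c took the largest share, 48.7%, 47.5% and 50.7%.

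Of the COPI coat, 0 of 7 genes passed as well, against the same 9.82% of all genes tested. Copg, the gamma subunit, had 3324, 5808 and 3722 reads (207, 289 and 236 CPM), log2 ratios of 0.48 (0.42 to 0.54) and 0.19 (0.12 to 0.26) and a fitted log2 change of 0.34 (SE 0.24, adjusted p = 0.460). Copb1, the beta subunit, had 3708, 4025 and 3294 reads, log2 ratios of -0.21 (-0.27 to -0.14) and -0.14 (-0.21 to -0.08) and a fitted log2 change of -0.17 (SE 0.23, adjusted p = 0.744). Copb2, the beta prime subunit, had 4571, 6375 and 4952 reads, log2 ratios of 0.15 (0.10 to 0.21) and 0.14 (0.08 to 0.20) and a fitted log2 change of 0.15 (SE 0.24, adjusted p = 0.796). Neighbouring subunits of the coat therefore lay on either side of the control by small amounts. Copa, Cope, Copz1 and Arcn1, the alpha, epsilon, zeta and delta subunits, had log2 fold changes of -0.11, -0.03, -0.01 and 0.11. The standard errors of the coat genes were 0.21 to 0.24, and a test that was not passed does not show that the coats were equal in all libraries.

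Promoters were searched for known letters that XBP1, ATF6 and TEAD factors bind. RefSeq windows of 300 bases (250 before and 50 after the start site, GRCm38.p6) were found for 36 of the 44 genes, in 40 windows. Sec61a1, Ssr2, Srp19, Srp68, Spcs3, Sec11c, Ostc and Arcn1 had none. In 36 of the 40 windows, the 30 bases after the start site lay in a GENCODE M21 transcript of that gene. The TEAD letters CATTCC occurred on either strand in 6 of 40 member windows (15%) and in 14.7% of all 32851 windows. GACGTG, the core bound by XBP1, occurred in 13 of 40 (32.5%) and in 6.38% of all windows, in 8 of 14 coat genes and 5 of 22 genes of the other groups. Of the 3 genes that fell and had a window (Rpn1, Spcs2 and Krtcap2), 0 held it.

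The longer element TGACGTGG, which contains GACGTG, occurred in 4 member windows (10.0%, against 0.676% of all windows), all of coat genes. The match of Sec23a lay after the start site, and that of Copb2 reached the start site itself. The complete ER stress response element (CCAAT, 9 bases of any kind, then CCACG) was in 0 of 40 windows and 0.119% of all windows. Its second form (ATTGG, any base, then CCACG) was in 1 member window (2.5%, against 0.0365%), that of Krtcap2, after the start site. The matches are descriptions of letters in these windows, not of binding.

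The matched stretches are shown because they set coat genes that did not pass beside a gene that fell. Capitals mark the match, read along the strand of the gene, so CCACGTCA is TGACGTGG on the other strand. The coordinates are GRCm38.p6: Sec24d chr3:123267445-123267495 (plus), Copb1 chr7:114254681-114254733 (minus), Copb2 chr9:98563699-98563731 (plus), Sec23a chr12:59011996-59012019 (minus) and Krtcap2 chr3:89246482-89246508 (plus):
Sec24d: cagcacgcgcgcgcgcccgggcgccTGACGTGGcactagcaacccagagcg
Copb1: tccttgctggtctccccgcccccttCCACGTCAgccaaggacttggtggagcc
Copb2: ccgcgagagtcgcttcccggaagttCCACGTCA
Sec23a: ctccccttTGACGTGGcagaggcg
Krtcap2: ggacacggATTGGACCACGgacggggc

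The members that share TGACGTGG had log2 fold changes of 0.13 (Sec24d), -0.17 (Copb1), 0.15 (Copb2) and -0.38 (Sec23a). Their signs differed, and none of these 4 passed the test. Krtcap2, the only member with the second form of the ER stress response element, had -0.80. Only 3 of the 8 members that fell had a window. A link between these letters and the changes was not tested.

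Other genes of the same steps were read from 7 lists, of which 126 of 132 genes were in the table and all 126 were tested: 9 fell and 2 rose, with a median of -0.07, where 4.48% of all genes tested fell and 5.34% rose. The likelihood-ratio test with the dispersion over all 3 libraries, which called 0 of all genes tested, called none of these. Of 31 genes that make the dolichol-linked sugar chain or supply its sugars, 6 fell and 1 rose, with a median of -0.12. Uap1, which makes the sugar donor UDP-GlcNAc, fell from 87.1 CPM to 47.4 and 40.7 CPM (fitted log2 change -0.98, SE 0.22, edgeR adjusted p = 0.00433). Pmm1, a phosphomannomutase, fell from 74.2 CPM to 42.9 and 45.6 CPM (-0.75, SE 0.21). Srd5a3, a reductase needed to make dolichol, rose from 10.3 CPM to 22.4 and 21.96 CPM (1.11, SE 0.27). The others that fell were Gmppb, Gnpnat1, Alg6 and Alg12, at -0.79, -0.92, -0.92 and -1.02.

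Of 4 other genes listed with oligosaccharyltransferase, Magt1, a subunit of the STT3B form, fell from 190 CPM to 98.0 and 109 CPM (-0.87, SE 0.22, edgeR adjusted p = 0.0115). Tmem147 and Nomo1 of that list are not subunits of the enzyme. Of 13 other translocation and insertion genes, Hspa13, an Hsp70 relative of microsomes, fell from 158 CPM to 68.7 and 88.3 CPM (-1.01, SE 0.22). Of 23 genes that regulate COPI or retrieve its cargo, Tmed5, a cargo receptor of the p24 family, fell from 85.6 CPM to 34.4 and 52.4 CPM (-0.98, SE 0.24). Of 19 genes of COPII assembly and cargo, Sec16b, which helps to organise ER exit sites, rose from 7.60 CPM to 24.7 and 15.7 CPM (1.42, SE 0.31). Among 8 genes of glycan trimming and 28 of ER-Golgi tethers and SNAREs, 0 passed in edgeR's test, with 1 and 6 at an unadjusted p under 0.05, a level that 21.7% of all genes tested reached in either direction; these lists were not counted with DESeq2 or limma-voom.

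**Figure D5:**
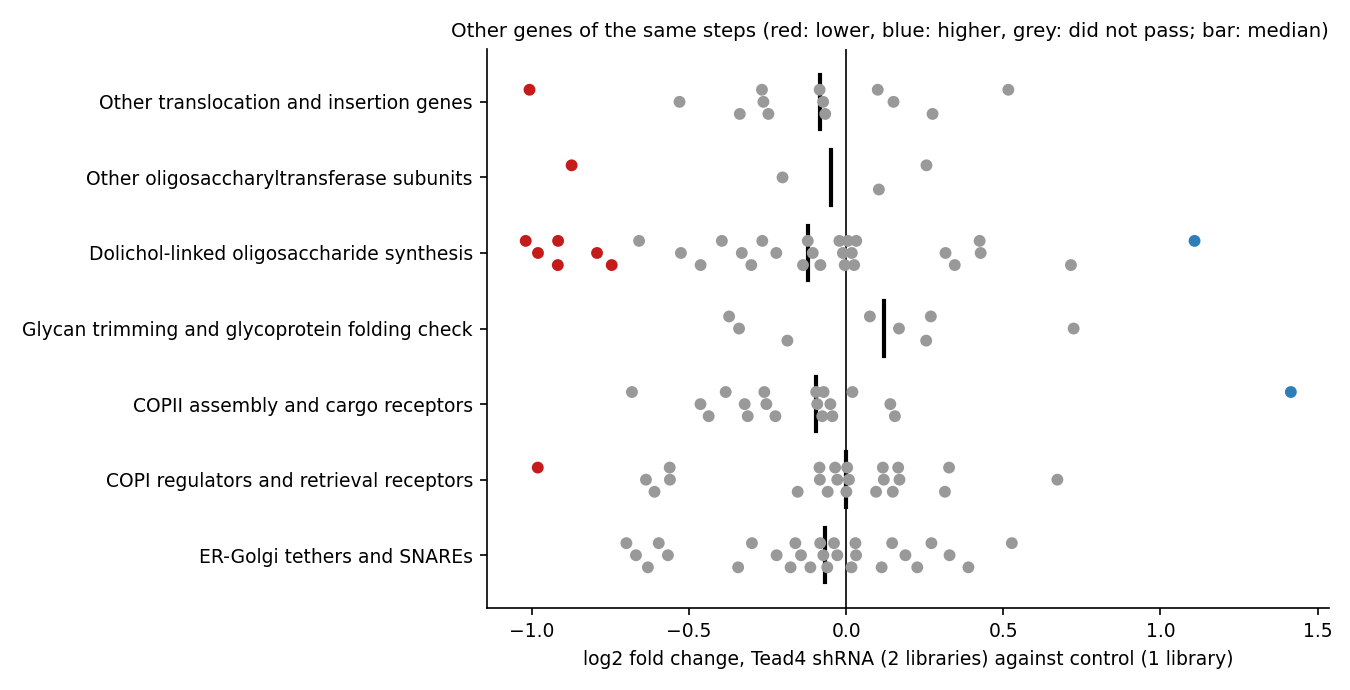
Log2 fold change of Tead4 shRNA against control for 126 other genes of the same steps in 7 lists, 1 point per gene, with the median of each list as a bar. Red points fell and blue points rose; 6 of the 9 red points lie in the list of dolichol-linked oligosaccharide synthesis, and the list medians lie between -0.12 and 0.12. The list drawn as other oligosaccharyltransferase subunits also holds Tmem147 and Nomo1, which are not subunits.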

How the data were processed

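The authors' deposited table gave raw read counts per Ensembl gene for 3 libraries and, beside them, normalized values, a deposited score equal to the raw count times 1 factor per library (1.00, 0.801 and 1.02), rounded; only the counts were used. TopHat 1.0.12, Cufflinks 0.8.2, DESeq and the build mm9 are listed, per the submitters' processing notes; the counting program and annotation are not given in the sources used here. Testing was done with edgeR 4.0.16 under R 4.3.3 (filterByExpr, TMM factors 0.979, 1.01 and 1.01, legacy quasi-likelihood F test; biological coefficient of variation 16.4%, prior df 20.9). Each SE was taken as |log2 change| over the root of F. The 1 control library was assumed to vary like the shRNA libraries. Ratios between libraries carry 95% exact (Clopper-Pearson) intervals of TMM-scaled counts, computed with scipy 1.17.1. Depths of 15594305 to 19918954 reads set their width. The fit was also run on simulated counts with the same dispersion in all libraries, which could not check the assumption about the control library. Alternatives used DESeq2 1.42.0, limma 3.58.1 voom, other scalings, no filter and the newer edgeR method.

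Of the members, 17 share exon bases with another gene, and reads there could come from either. Values were printed in full for the 3 members of each group with the largest absolute log2 fold change and for every member that passed; from each other list the 2 called genes in each direction with the highest mean CPM were named, and the remaining called genes were named after their values were seen. The members and lists were chosen with earlier results of these data known. Gene overlaps came from GENCODE M21, which holds 44 of the 45 rows; its build, GRCm38, is not the authors', so it served for names, exon lengths, exon overlaps and a check of the promoter windows, and none of its coordinates are given, and promoter windows came from RefSeq on GRCm38.p6.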

Additional observations from a re-analysis of the deposited data

Results flagged for a closer look

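For 2 members the shRNA libraries lay on opposite sides of the control, each with a counting interval that excludes no change; the difference between the shRNAs was not tested over replicates. At any size, the shRNA libraries were not on the same side for 8 of the 45 member rows and 3252 of the 14478 genes tested. How many of all genes meet the rule with intervals was not counted, so these members are not shown to be unusual. Dad1, a small subunit of oligosaccharyltransferase, had a log2 ratio to the control of -0.32 (-0.41 to -0.23) for shRNA A and 0.11 (0.02 to 0.20) for shRNA B. Sec24d, a cargo-binding protein of the COPII coat, had 0.35 (0.27 to 0.43) for shRNA A and -0.13 (-0.22 to -0.04) for shRNA B.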

How the results depend on the processing

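The 8 members that fell had log2 values from -1.18 to -0.69 with shRNA A alone and from -1.045 to -0.64 with shRNA B alone, each against the control, with no test. Here the TMM factors were recomputed for each pair of libraries, so the shRNA B values differ slightly from the ratios given above. None of these 8 members changed direction under any of the 8 other fits. DESeq2 called 371 genes lower and 447 higher and 5 members lower, and ended the calls of Srp19, Sec11c and Krtcap2. The likelihood-ratio test with the dispersion over all 3 libraries called 0 genes in each direction and 0 members, so 0 in the translocon, SRP, signal peptidase and oligosaccharyltransferase groups. The count for SRP and its receptor, 1 in the test as reported, was 0 with RLE, upper-quartile and total-count scaling, DESeq2 and limma-voom. At a 2-fold threshold 0 members were lower in both libraries. With upper-quartile and total-count scaling the median was -0.54 and -0.53 for oligosaccharyltransferase, 0.0316 and 0.0381 for COPI, and 0.0570 and 0.0634 for all genes tested; with RLE scaling it was -0.0172 for COPI. The cause of these differences was not tested. No paired analysis was possible because the control group has 1 library and the labels give no replicate numbers. With 1 control library, a control culture that differs from others of its kind cannot be told apart from an effect of the shRNAs.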

Other observations

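Levels of different genes were compared per kilobase of exon, with lengths from GENCODE M21, a later annotation than the authors' build. Each length counts every exon base annotated for the gene, not the length of 1 transcript, so the order of genes depends on it. In the control library Ssr3 stood highest of all members at 224 CPM per kilobase, above Srp14 (159) and Ddost (112). Within TRAP, Ssr3 was followed by Ssr2 (72.8), Ssr4 (29.7) and Ssr1 (25.2). Within signal peptidase, Spcs1 (87.7) and Spcs3 (85.2) stood above Spcs2 (25.2), Sec11a (17.5) and Sec11c (4.87). With shRNAs A and B, Ssr3 was at 133 and 160 CPM per kilobase and Sec11c at 2.72 and 2.80. These levels are from 1 library each, with no replicate.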
